A study of Arabidopsis thaliana with 8 samples.

Results

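The low-oxygen response genes of Arabidopsis thaliana are a core set whose transcripts are known to build up when cells run short of oxygen. They were followed here in roots that were short of iron. The list held 50 loci and 1 array row given by its ID, which stands for the transcription factor gene LBD41 (AT3G02550). The array annotation gave a row of their own to 26 of the 50 loci, so with LBD41 there were 27 members among 22746 probe sets (an Affymetrix probe set is the group of short probes read as 1 value). The other 24 loci are not analysed here because no row is named for them alone. Among them are the genes of alcohol dehydrogenase, the pyruvate decarboxylase PDC1, the sucrose synthases and the oxygen-sensing oxidases PCO1 and PCO2. The members were chosen by their known function, from a list compiled after the signal changes of the leading genes on these same arrays had been seen. The selection rule itself names no comparison and no threshold. What follows therefore describes the members, and their counts do not test whether the group stands out.

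Whole roots of the Columbia ecotype came from wild type and from the mutant pye-1, which affects POPEYE (PYE), a bHLH regulator of responses to low iron. At 7 days after germination the plants spent 24 h on medium with iron (+Fe), supplied as Fe(III)-EDTA, or on medium with 0.3 mM ferrozine, a chelator of ferrous iron, in place of the iron salt (-Fe). The 4 groups held 2 arrays each, wild type +Fe, wild type -Fe, pye-1 +Fe and pye-1 -Fe, and each replicate pooled about 320 roots cut just below the hypocotyl. The mutant is represented by the single line pye-1 in these labels.

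As background, plant cells sense oxygen through the N-degron pathway. Plant cysteine oxidases use oxygen to mark group VII ethylene response factors for breakdown, and when oxygen is scarce these factors persist and switch on a core set of genes. That set covers ethanol and lactate fermentation, sucrose breakdown, regulators such as LBD41 and HRA1, and many small proteins whose function is unknown. Roots are the organ in which the response is best known, because waterlogged soil holds little oxygen.

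Median signal was 91.4 to 97.6 on the 8 arrays, and arrays of 1 group correlated at 0.975 to 0.981 over the tested probe sets. The labelled mutation was visible in PYE itself, which read 56.7 and 65.1 in wild type +Fe, 138 and 149 in wild type -Fe, 19.1 and 15.0 in pye-1 +Fe, and 25.0 and 28.2 in pye-1 -Fe. The control level of an array, set by the brightest of 27 probe sets for bacterial genes that should find no target, was 11.7 to 23.7. Of 6 markers of root hairs and epidermis, the expansin genes EXPA7 and EXPA18 had a row. EXPA18 read 704 and 522 in wild type +Fe, 339.6 and 299.9 in wild type -Fe, 486 and 424 in pye-1 +Fe, and 325 and 286 in pye-1 -Fe. It fell by 0.93 ± 0.17 in wild type without iron (adjusted p = 0.0310), while its change of -0.58 ± 0.17 in pye-1 (adjusted p = 0.261) and those of EXPA7 (-0.39 in wild type and -0.19 in pye-1) did not pass. Of 10 markers of green tissue, 3 had a row and none was at the control level. Their summed signal was 920 and 888 in wild type +Fe, 674 and 647 in wild type -Fe, 750 and 802 in pye-1 +Fe, and 566 and 629 in pye-1 -Fe. It was thus lower without iron in both genotypes, and PSAN, a photosystem gene, fell by 0.93 ± 0.18 in wild type (adjusted p = 0.0372). The part of either marker list in the results was not tested. In whole roots, fewer cells of a type and less RNA per cell cannot be told apart. On the 4 arrays of replicate 1 the 25S ribosomal RNA control lay at 242 to 565, and on those of replicate 2 at 1691 to 4047.

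The members were brightest in pye-1 roots without iron. On both pye-1 -Fe arrays, 17 of the 27 members (63%) read higher than on all 6 other arrays, a pattern shown by 4.29% of all 22746 probe sets. By group mean, 19 members were highest in pye-1 -Fe and none was lowest there, against 22.5% and 30.8% of all probe sets. The lowest mean lay in wild type -Fe for 12 members (44.4%, against 23.9% of all probe sets). It lay in wild type +Fe for 8 (29.6%, against 27.1%) and in pye-1 +Fe for 7 (25.9%, against 18.1%). Members differed widely in level and in the size of the difference. LBD41, for example, read 7.11 times higher in pye-1 -Fe than in pye-1 +Fe. The log2 changes of PDC2 lay between -0.25 and 0.23 in the 4 pairwise comparisons.

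**Figure D1:**
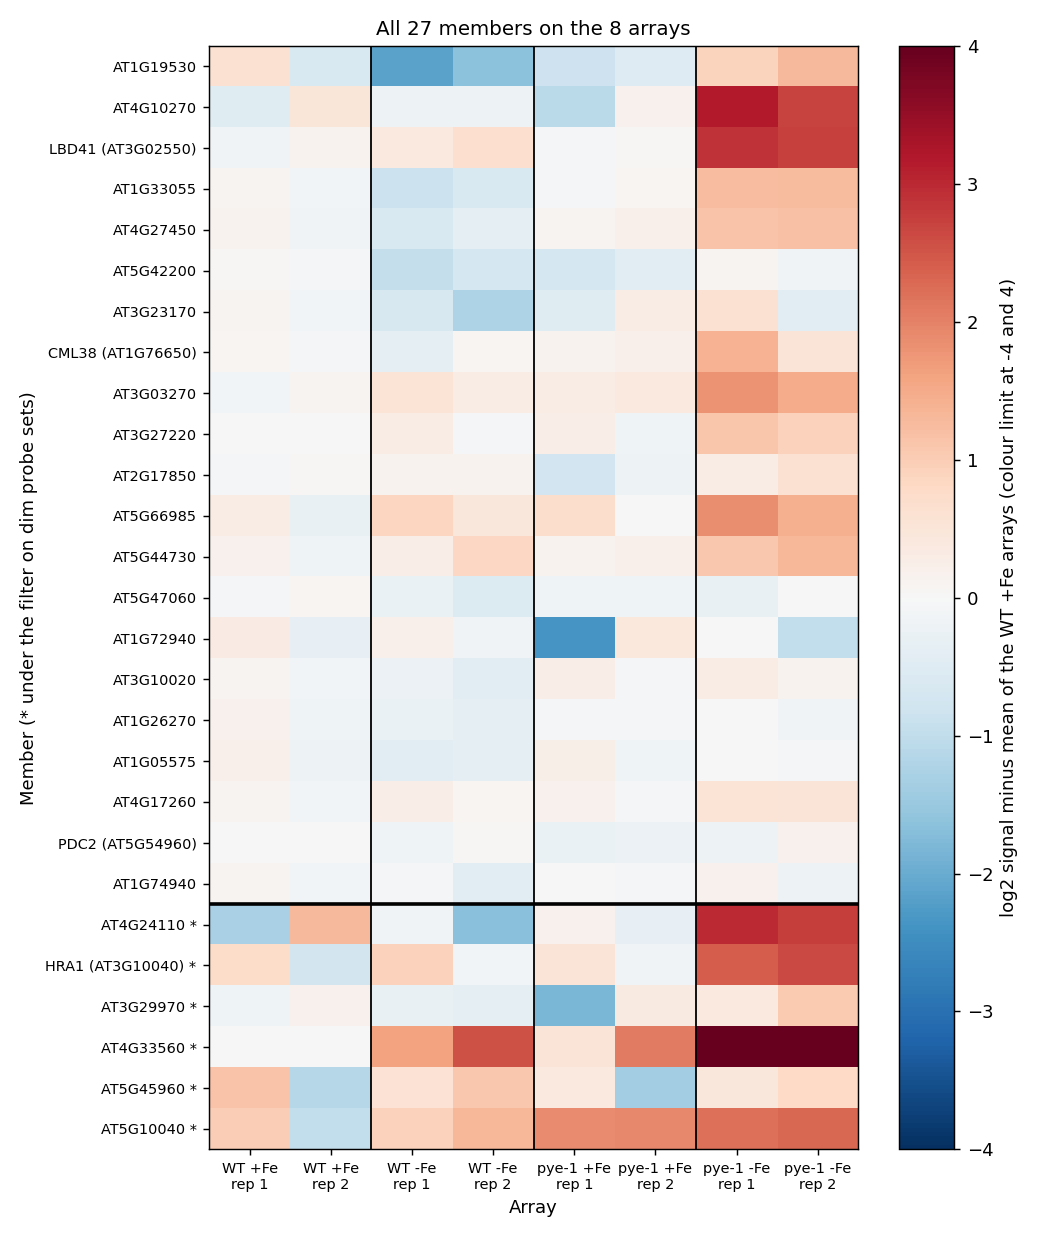
Colour gives the log2 signal of each of the 27 members on each of the 8 arrays minus the mean of that member's wild type +Fe arrays. The members above the horizontal line were tested and the 6 below it, marked with a star, were too dim. The last 2 columns, pye-1 -Fe, are red for most members. Several members are blue on both wild type -Fe arrays, among them AT1G19530, AT1G33055, AT3G23170, AT4G27450 and AT5G42200.

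Both regulators among the members were high in pye-1 without iron. LBD41, a LOB-domain transcription factor, read 88.8 and 106 in wild type +Fe and 127 and 154 in wild type -Fe. It read 91.7 and 99.9 in pye-1 +Fe and 720 and 643 in pye-1 -Fe. The pye-1 -Fe arrays stood clear of the other 6, among which those of wild type -Fe were the highest. Without iron, LBD41 was 4.86 times higher in pye-1 than in wild type, a log2 difference of 2.28 ± 0.17 (standard error from limma, n = 2 arrays per group; adjusted p = 3.07e-04 over all 15922 probe sets tested). Within pye-1 it rose without iron by 2.83 ± 0.17 (adjusted p = 1.86e-05), and by 2.97 in replicate 1 and 2.69 in replicate 2. In wild type its change was 0.53 ± 0.17, which did not pass (adjusted p = 0.317).

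HRA1 (AT3G10040), a repressor named for attenuating the hypoxia response, was much dimmer. It read 21.7 and 7.76 in wild type +Fe, 24.6 and 11.9 in wild type -Fe, and 18.4 and 11.8 in pye-1 +Fe, and 69.3 and 80.4 in pye-1 -Fe. Only the last pair lay well away from the control level, which neither pye-1 +Fe array exceeded. HRA1 was therefore at least 4.83 times higher in pye-1 -Fe than in pye-1 +Fe. It was left out of the main test as too dim. With dim probe sets kept, its changes of 2.34 ± 0.62 in pye-1 and 2.13 ± 0.62 between genotypes without iron did not pass (adjusted p = 0.251 and 0.420).

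The 2 fermentation genes with a row showed small differences, none of which passed. The listed genes of alcohol dehydrogenase and PDC1 had no row of their own, so nothing is said of them. PDC2, a pyruvate decarboxylase of ethanol fermentation, read 742 and 746 in wild type +Fe, 663 and 765 in wild type -Fe, 625 and 630 in pye-1 +Fe, and 650 and 835 in pye-1 -Fe. The groups without iron overlapped, with a genotype difference of 0.05 ± 0.15 (adjusted p = 0.990). AT4G17260, a lactate dehydrogenase, read 283 and 248 in wild type +Fe, 320 and 278 in wild type -Fe, 296 and 256 in pye-1 +Fe, and 384 and 382 in pye-1 -Fe. Its pye-1 -Fe arrays were the brightest of the 8, but its changes of 0.47 ± 0.15 in pye-1 and 0.36 ± 0.15 between genotypes without iron did not pass (adjusted p = 0.303 and 0.654). Next to these enzymes, GAPC2, a glycolytic dehydrogenase, was the 1 gene with a row among 49 further loci of oxygen sensing, fermentation, sucrose breakdown, haemoglobins, ethylene, starvation and respiratory oxidases. It changed by -0.07 to 0.13 over the 5 comparisons and did not pass in any.

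AT4G10270 belongs to a small family of wound-responsive proteins. It read 14.3 and 27.5 in wild type +Fe, 17.3 and 17.3 in wild type -Fe, 9.34 and 22.2 in pye-1 +Fe, and 178 and 129 in pye-1 -Fe. In each of the first 3 groups 1 of the 2 arrays was at the control level, and the pye-1 -Fe arrays were far above. Its geometric mean on the other 6 arrays, 17.0, was under the limit of 23.3 below which probe sets were left out, so it was tested only because of its pye-1 -Fe values and had to differ there. It rose without iron in pye-1 by 3.40 ± 0.49 (adjusted p = 0.00630, and 2.90 after raising signals to the control level), and was 3.13 ± 0.49 higher than in wild type without iron (adjusted p = 0.0196, and 3.09 with signals raised to that level). The genotype call was lost when any of the 4 arrays compared was omitted (adjusted p = 0.114 to 0.207) with dim probe sets kept (adjusted p = 0.0535) and without the intensity trend of the variance model (adjusted p = 0.0567), and the call in pye-1 was lost without pye-1 -Fe replicate 1 (adjusted p = 0.0964). AT4G33560, of the same family, read 1.38 and 1.34 in wild type +Fe, 4.18 and 7.92 in wild type -Fe, 1.96 and 5.74 in pye-1 +Fe, and 29.0 and 26.4 in pye-1 -Fe. The first 6 values were at the control level, so it was at least 1.79 times higher in pye-1 -Fe than in pye-1 +Fe and at least 1.80 times higher than in wild type -Fe. With dim probe sets kept, its changes of 3.04 ± 0.93 in pye-1 and 2.26 ± 0.93 between genotypes without iron did not pass (adjusted p = 0.354 and 0.716).

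**Figure D2:**
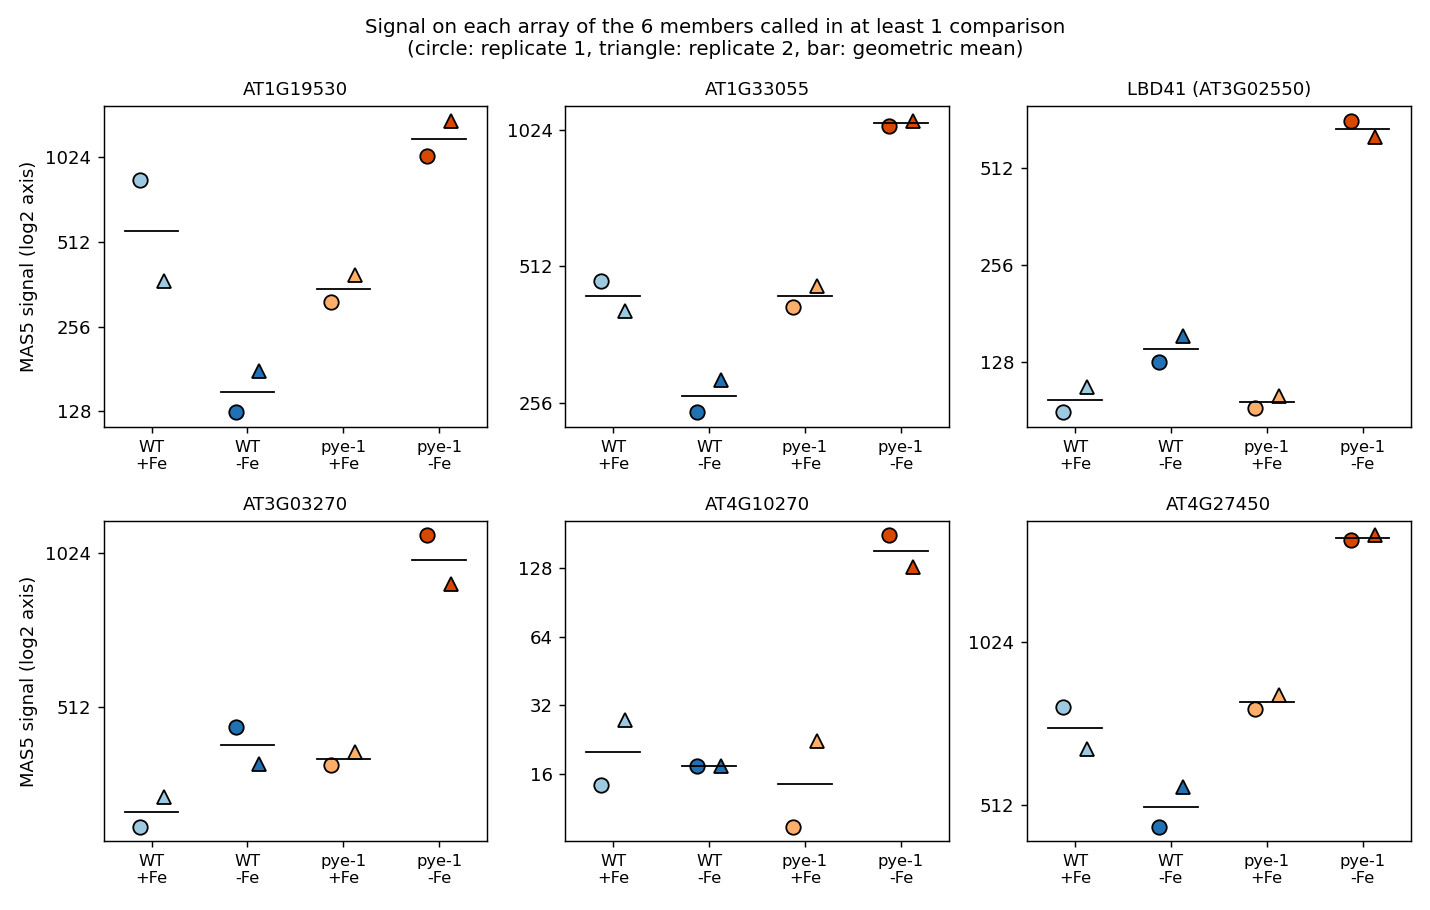
Each panel shows the MAS5 signal (log2 axis) of 1 of the 6 members past the threshold in at least 1 comparison, with circles for replicate 1, triangles for replicate 2 and bars for the geometric mean of the group. In all 6 panels both pye-1 -Fe arrays are the highest of the 8, and in those of AT1G19530, AT1G33055 and AT4G27450 the wild type -Fe arrays are the lowest.

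Among the called members, AT1G19530, AT1G33055 and AT4G27450 were lowest in wild type without iron and highest in pye-1 without iron. AT1G19530, a protein of unknown function, read 847 and 370 in wild type +Fe, 127 and 178 in wild type -Fe, 312 and 390 in pye-1 +Fe, and 1033 and 1380 in pye-1 -Fe. The wild type +Fe arrays differed from each other by more than those of any other group, and without iron the genotypes did not overlap. Wild type without iron fell by 1.90 ± 0.33 on the log2 scale (adjusted p = 0.0221), with -2.74 in replicate 1 and -1.06 in replicate 2, whereas pye-1 rose by 1.77 ± 0.33 (adjusted p = 0.0321). Without iron AT1G19530 was 7.95 times higher in pye-1 (log2 difference 2.99 ± 0.33, adjusted p = 0.00311). That genotype call kept its side of the threshold whichever of the 8 arrays was omitted. The decrease in wild type did not pass when replicate 1 with iron (-1.30, adjusted p = 0.0967) or either replicate without iron (adjusted p = 0.193 and 0.0626) was omitted, nor did the increase in pye-1 when any pye-1 array was (adjusted p = 0.0798 to 0.206). Without the intensity trend neither change passed (adjusted p = 0.124 in wild type and 0.148 in pye-1).

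AT1G33055, which also encodes a protein of unknown function, read 475 and 408 in wild type +Fe, 244 and 288 in wild type -Fe, 417 and 465 in pye-1 +Fe, and 1043 and 1071 in pye-1 -Fe. The +Fe groups overlapped and the -Fe groups lay on either side of them. It fell by 0.73 ± 0.14 in wild type (adjusted p = 0.0434) and rose by 1.26 ± 0.14 in pye-1 (adjusted p = 0.00124). Without iron it was 3.99 times higher in pye-1 (log2 difference 1.99 ± 0.14, adjusted p = 2.61e-04). The decrease in wild type did not pass when any wild-type array or either pye-1 -Fe array was omitted (adjusted p = 0.0765 to 0.363), nor without the intensity trend (adjusted p = 0.142).

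AT4G27450, of a family named for induction by aluminium, read 778 and 651 in wild type +Fe, 467 and 553 in wild type -Fe, 771 and 817 in pye-1 +Fe, and 1583 and 1615 in pye-1 -Fe. As with AT1G33055, the -Fe groups lay on either side of the +Fe groups. It rose by 1.01 ± 0.14 in pye-1 (adjusted p = 0.00468) and was 3.15 times higher in pye-1 than in wild type without iron (log2 difference 1.65 ± 0.14, adjusted p = 3.83e-04). In wild type its change was -0.49 ± 0.14 (adjusted p = 0.208, and 0.0429 in a fit with replicate number as a blocking factor, the replicate block).

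Another 7 members encode signalling and stress proteins. AT3G03270, of the universal stress protein family, read 299 and 342 in wild type +Fe, 469 and 396 in wild type -Fe, 394 and 418 in pye-1 +Fe, and 1107 and 889 in pye-1 -Fe. The pye-1 -Fe arrays were again apart, and wild type also read higher without iron than with it. It rose by 1.29 ± 0.15 in pye-1 (adjusted p = 0.00193) and was 1.20 ± 0.15 higher in pye-1 than in wild type without iron (adjusted p = 0.00668). The genotype call was lost without wild type -Fe replicate 2 or pye-1 -Fe replicate 1 (adjusted p = 0.0824 and 0.0720), and without the intensity trend (adjusted p = 0.0567). In wild type the change was 0.43 ± 0.15 (adjusted p = 0.386).

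AT5G42200, a RING finger protein, read 239 and 220 in wild type +Fe, 118 and 141 in wild type -Fe, 141 and 168 in pye-1 +Fe, and 246 and 207 in pye-1 -Fe. It was low in wild type -Fe and pye-1 +Fe, and the other groups overlapped at a higher level. Its changes of -0.82 ± 0.17 in wild type (adjusted p = 0.0631) and 0.80 ± 0.17 between genotypes without iron (adjusted p = 0.113) passed with the replicate block (adjusted p = 0.0143 and 0.0245). CML38, a calmodulin-like calcium sensor, read 33.3 and 29.5 in wild type +Fe, 24.4 and 33.2 in wild type -Fe, 34.5 and 36.0 in pye-1 +Fe, and 82.0 and 45.3 in pye-1 -Fe. The pye-1 -Fe arrays were its 2 brightest but differed widely from each other, and the genotype difference without iron was 1.10 ± 0.36 (adjusted p = 0.425). AT1G74940 and AT5G47060, FLZ-type zinc finger proteins, and AT1G26270, of a phosphatidylinositol 4-kinase family, stayed between 306 and 479, 162 and 246, and 668 and 975 signal units over the 8 arrays. AT1G72940, which carries a TIR domain, was dim and scattered from 6.91 to 47.1, both of them in pye-1 +Fe.

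Among the remaining members, AT5G66985, of unknown function, read 413 and 273 in wild type +Fe, 606 and 462 in wild type -Fe, 544 and 336 in pye-1 +Fe, and 1207 and 896 in pye-1 -Fe. In every group replicate 1 was the brighter, and the pye-1 -Fe arrays were above all others. Its change of 1.28 ± 0.27 in pye-1 did not pass (adjusted p = 0.0576), but with the replicate block it did (adjusted p = 1.97e-05), as did the changes of 0.66 in wild type (adjusted p = 0.00553) and 0.98 between genotypes without iron (adjusted p = 4.47e-04). AT5G44730, a haloacid dehalogenase-like protein, read 123 and 96.9 in wild type +Fe, 132 and 193 in wild type -Fe, 119 and 127 in pye-1 +Fe, and 233 and 274 in pye-1 -Fe. Both genotypes read higher without iron, and the change of 1.04 ± 0.21 in pye-1 (adjusted p = 0.0547) passed with the block (adjusted p = 0.0105). AT3G27220, a kelch-repeat protein, read 49.5 to 68.4 on the first 6 arrays and 118 and 104 in pye-1 -Fe. Its change in pye-1 was 0.95 ± 0.24 (adjusted p = 0.156, and 0.0414 with the block).

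AT3G10020, of unknown function, read 623 and 542 in wild type -Fe and 897 and 814 in pye-1 -Fe, and its difference of 0.56 ± 0.15 (adjusted p = 0.282) passed with the block (adjusted p = 0.0106). By group mean it was lowest in wild type -Fe and highest in pye-1 -Fe, whose arrays overlapped those of pye-1 +Fe (888 and 711). Its change in pye-1 was 0.11 ± 0.15 (adjusted p = 0.930). AT1G05575, also of unknown function, read 307 to 480 on the 8 arrays with its lowest values in wild type -Fe. AT3G23170 varied from 22.2 to 80.9 and its pye-1 -Fe arrays spanned 39.3 to 80.9. Its changes of -0.95 ± 0.41 in wild type and 1.05 ± 0.41 between genotypes without iron did not pass (adjusted p = 0.532 and 0.610). AT2G17850, a rhodanese-like protein, was dim throughout, at 14.0 to 36.5, with both its highest values in pye-1 -Fe.

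Of the 6 members too dim for the main test, HRA1 and AT4G33560 are described above. AT4G24110, of unknown function, read 5.91 and 35.7 in wild type +Fe, 13.3 and 4.59 in wild type -Fe, 16.2 and 11.5 in pye-1 +Fe, and 115 and 97.8 in pye-1 -Fe. Neither pye-1 +Fe array exceeded the control level, so it was at least 6.85 times higher in pye-1 -Fe. With dim probe sets kept, its difference of 3.76 ± 0.83 between genotypes without iron did not pass (adjusted p = 0.169). AT3G29970, of the B12D family, read 24.1 and 38.1 in pye-1 -Fe, the 2 highest of its 8 values, but 23.7 on 1 pye-1 +Fe array. AT5G10040 read 17.5 and 17.7 in pye-1 +Fe and 21.7 and 23.3 in pye-1 -Fe. With dim probe sets kept, that change of 0.36 ± 0.76 did not pass (adjusted p = 0.965). AT5G45960, a GDSL lipase-like protein, was at the control level on all 8 arrays.

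**Figure D3:**
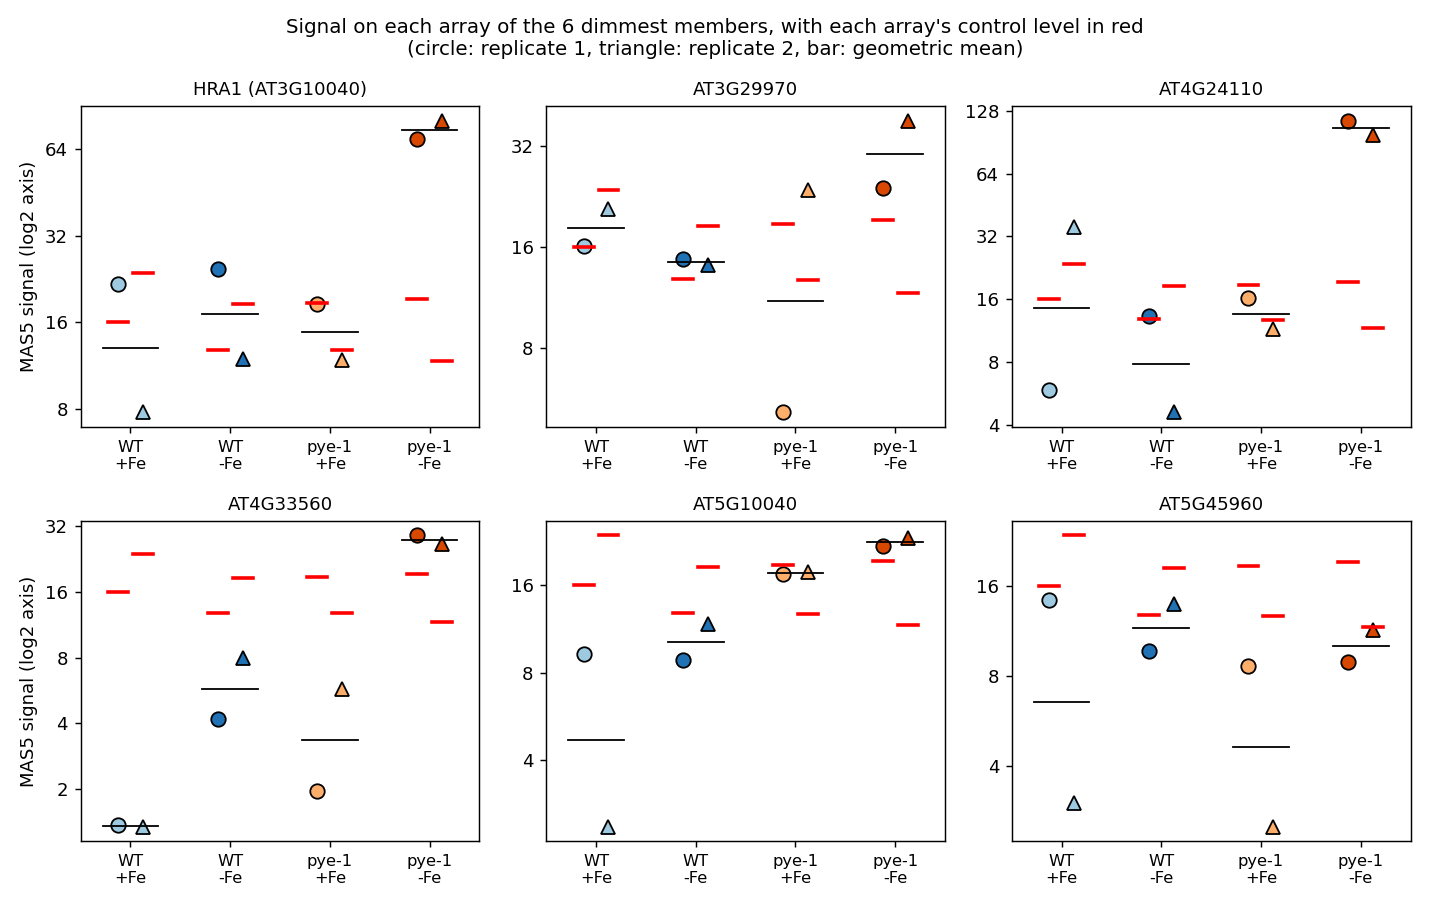
Each panel shows the MAS5 signal (log2 axis) of 1 of the 6 dimmest members, with circles for replicate 1, triangles for replicate 2, black bars for the geometric mean of a group and a red bar for the control level of each array. HRA1 at 69.3 and 80.4 and AT4G24110 at 115 and 97.8 stand well above the red bars in pye-1 -Fe, whereas AT5G45960 lies under the red bar on every array.

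The comparison of wild type without and with iron asks what 24 h of iron deficiency does to the members. Of the 21 tested members, 2 fell, AT1G19530 and AT1G33055, where 0.415% of all tested probe sets fell, and 19 did not pass. None rose in limma, where 0.559% of all tested probe sets did, and at an unadjusted p under 0.05, 4 were higher (4.48% of all) and 7 lower (4.25% of all). With the replicate block 4 fell (1.48% of all tested probe sets did in that fit) and 1 rose (1.57% did). EXPA18, from the list for root hairs and epidermis, and PSAN, from the list for green tissue, also fell in this comparison. The median change was -0.20, ranging from -1.90 to 0.66, against 0.00 over all tested probe sets. Over all 27 members it was -0.14. On both wild type -Fe arrays 10 members read lower than on both +Fe arrays (18.5% of all probe sets did) and 6 read higher (18.4% did).

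In pye-1 the same comparison asks how the mutant responds. Here 6 of the 21 members rose (0.848% of all tested probe sets did) and 15 did not pass. They were LBD41, AT4G10270, AT1G19530, AT3G03270, AT1G33055 and AT4G27450. None fell in limma (0.201% of all did). At an unadjusted p under 0.05, 12 were higher (3.82% of all) and none was lower (4.75% of all). With the block 9 rose (1.69% of all did in that fit). The median change was 0.79, with 1.04 in replicate 1 and 0.58 in replicate 2, against -0.04 over all tested probe sets. Over all 27 members it was 0.95, and 20 of the 27 read higher on both pye-1 -Fe arrays than on both pye-1 +Fe arrays (13.7% of all probe sets did). AT4G10270 and AT2G17850 would have been too dim to test on the mean of the other 6 arrays, so they were tested only because of their pye-1 -Fe values. Without them, 5 of 19 members rose. Both are among the 12 at an unadjusted p under 0.05, and AT4G10270 is among the 9 with the block. The median of 0.79 includes both.

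**Figure D4:**
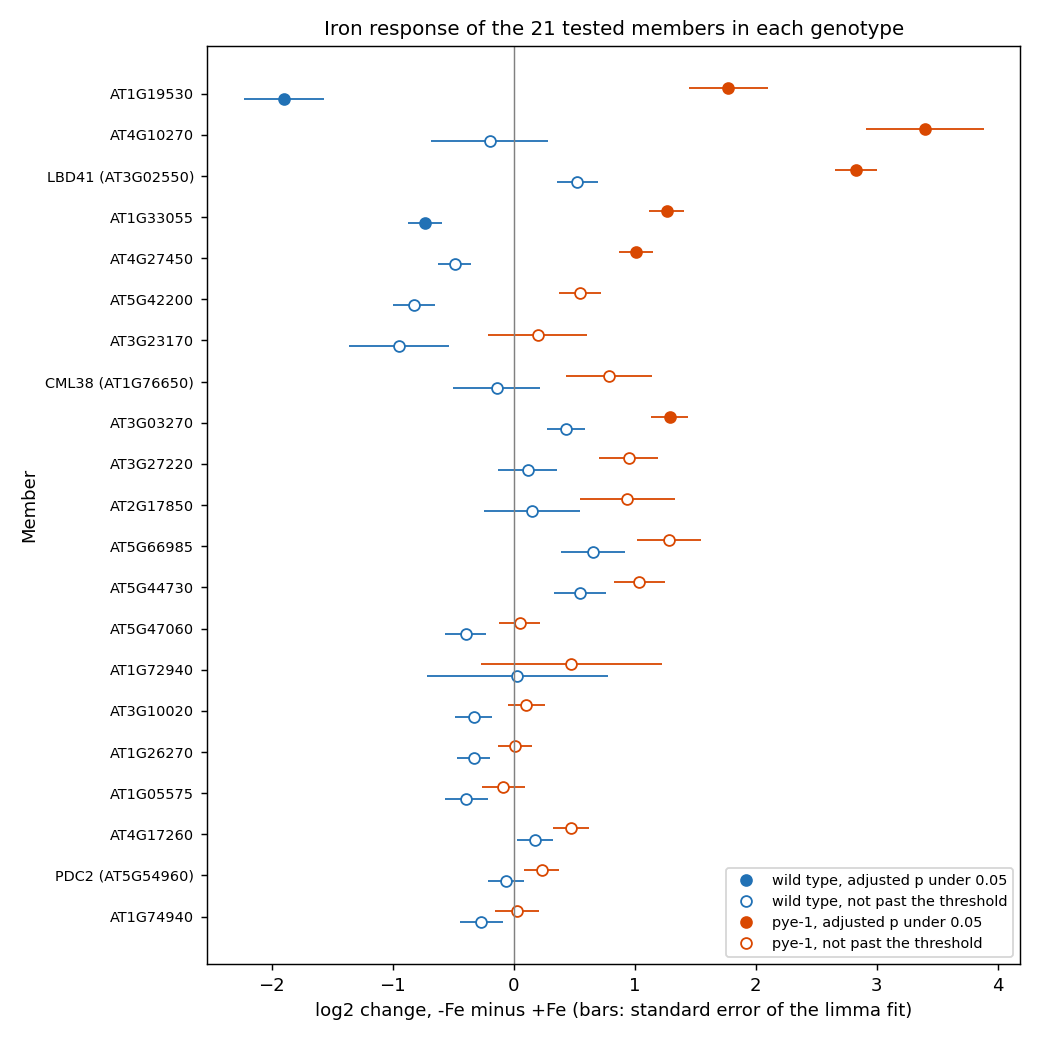
Points give the log2 change (-Fe minus +Fe) of each of the 21 tested members in wild type (blue) and pye-1 (orange), bars give the standard error of the limma fit, and filled points passed an adjusted p of 0.05. The orange point lies to the right of the blue one for all 21 members, and AT1G19530 and AT1G33055 have filled points on opposite sides of 0.

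With iron present, the genotypes were compared to see whether pye-1 alters the members in roots not short of iron. None of the 21 members was called higher or lower in limma (0.0502% and 0.0126% of all tested probe sets were). At an unadjusted p under 0.05, 1 was higher (2.88% of all) and 1 was lower (2.76% of all). The median difference was -0.02, against 0.02 over all tested probe sets, and single members ran from -0.97 for the dim AT1G72940 to 0.35 for AT5G66985. LBD41 differed by -0.02 ± 0.17 and AT1G33055 by 0.00 ± 0.14.

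Without iron, the 6 members that rose in pye-1 were also higher in pye-1 than in wild type (0.327% of all tested probe sets were), and 15 did not pass. The 2 comparisons share the pye-1 -Fe arrays. None was lower in limma (0.138% of all were). At an unadjusted p under 0.05, 14 were higher (3.12% of all) and none was lower (3.88% of all). With the block 9 were higher (0.999% of all in that fit), and in the main comparison 5 of 19 were without AT4G10270 and AT2G17850. AT4G10270 is among the 14 and the 9, and the median below includes both members. Ranked by the size of this difference among 15922 probe sets, AT1G19530 was 4th, LBD41 9th, AT1G33055 17th and AT4G27450 30th. The median difference was 0.80, with 0.82 in replicate 1 and 0.56 in replicate 2, against -0.03 over all tested probe sets. Over all 27 members it was 0.98, and 22 members read higher on both pye-1 -Fe arrays than on both wild type -Fe arrays (16.8% of all probe sets did).

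**Figure D5:**
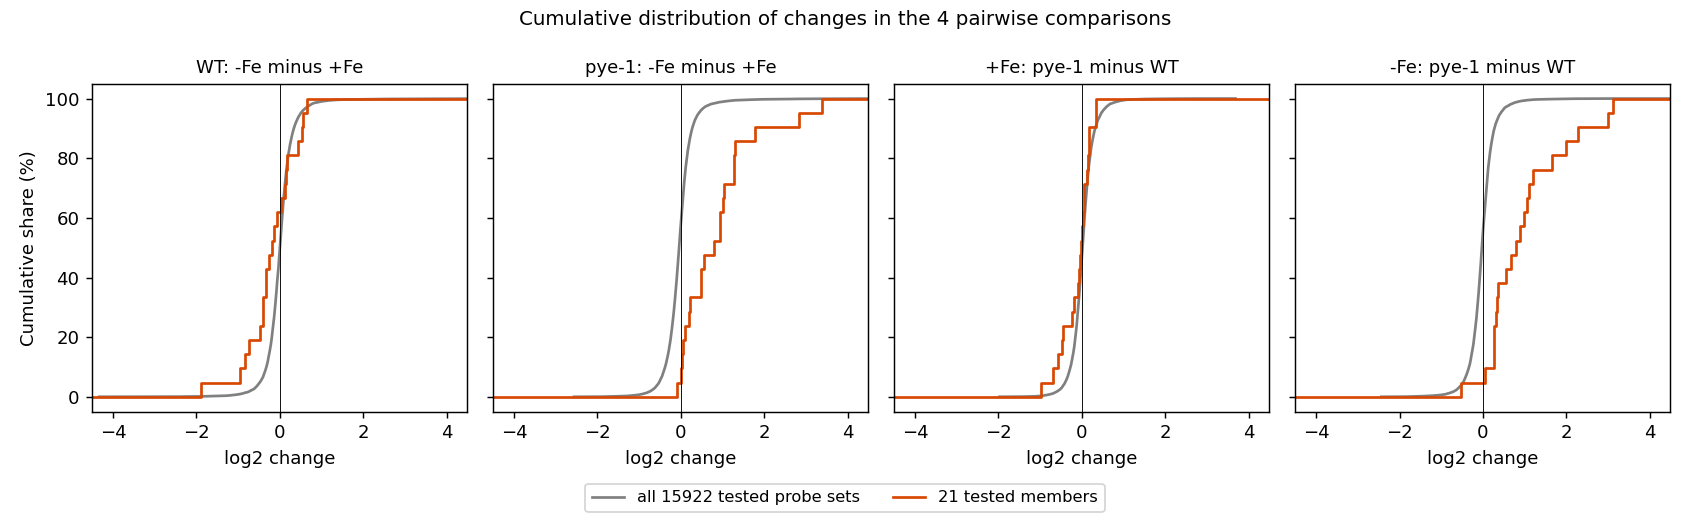
Each panel gives the cumulative share (%) of log2 changes for the 21 tested members (orange steps) and all 15922 tested probe sets (grey line) in 1 comparison. Over most of their length the orange steps lie to the right of the grey line for pye-1 -Fe against pye-1 +Fe (median 0.79) and for pye-1 against wild type without iron (median 0.80), and cross it for pye-1 against wild type with iron.

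Whether the iron response differed between genotypes was tested by the interaction, the change in pye-1 minus that in wild type. It was above 0 for 26 of the 27 members and for all 21 that were tested, whereas 44.6% of all probe sets lay above 0. The exception was the dim AT5G10040, at -0.76. In limma, 4 of the 21 members were called (0.0502% of all tested probe sets were, 8 in all). AT1G19530 had an interaction of 3.67 ± 0.47 (adjusted p = 0.0222), LBD41 of 2.30 ± 0.24 (adjusted p = 0.0106), AT1G33055 of 2.00 ± 0.20 (adjusted p = 0.0106) and AT4G27450 of 1.50 ± 0.19 (adjusted p = 0.0248). None was called below 0 (0.0377% of all were). At an unadjusted p under 0.05, 8 lay above 0 (2.49% of all) and none below (3.26% of all). With the block, AT4G10270 at 3.59 and AT5G42200 at 1.38 passed as well (adjusted p = 0.0399 and 0.0243), which made 6 (0.251% of all tested probe sets passed above 0 in that fit). AT4G10270 and AT2G17850 were tested only because of their pye-1 -Fe values, which also enter the interaction. Both are among the 21 above 0, and AT4G10270 is among the 8 at an unadjusted p under 0.05 as well. Without the intensity trend no member was called (adjusted p = 0.138 to 0.257 for the 4). No member was called without wild type -Fe replicate 1, pye-1 -Fe replicate 1 or pye-1 -Fe replicate 2, and 2 were called without wild type -Fe replicate 2 or pye-1 +Fe replicate 1. With 1 array at a time omitted, the interaction ranged from 3.08 to 4.27 for AT1G19530, from 2.17 to 2.44 for LBD41, from 1.88 to 2.11 for AT1G33055 and from 1.37 to 1.63 for AT4G27450. Despite that narrow range, AT4G27450 kept its call only when wild type +Fe replicate 2 was the array omitted.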

How the data were processed

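Whole-root RNA of 8 samples was hybridised to 1-colour Affymetrix arrays, per the labels' protocols after 1-cycle amplification and biotin labelling. Per the submitters' processing notes, the deposited intensity values are MAS5 signals, a linear-scale summary of each probe set's perfect-match and mismatch probes. No coordinates are printed, since the MAS5 version and the genome build are not given in the sources used here. Because MAS5 subtracts a mismatch estimate, log2 values of dim probe sets are noisy. The labels give no extraction or scan batch.

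Groups and replicate numbers came from the sample titles. The labels call the arrays of a group biological replicates. The log2 of each signal was taken with no pseudocount or further scaling. After 64 control probe sets, the 30% with the lowest mean log2 signal (below 23.3 signal units) were left out, which kept 15922 of 22746 and 21 of 27 members. Names came from the platform annotation, where 13513 name 1 gene, 503 name several and 8730 none, matched by gene ID to RefSeq loci. LBD41 was taken by row ID. Sequences are not printed.

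The model was fitted in R 4.3.3 with limma 3.58.1 on the 8 arrays together. It had a mean for each group, 5 contrasts, and moderated variances (eBayes) that follow an intensity trend, with 4 residual degrees of freedom and 6.32 from the prior, with Benjamini-Hochberg adjustment over all 15922 probe sets and a threshold of 0.05. The fit was tested on simulated data. The smallest p of an exact test with 2 arrays a side is 0.333, and such tests were left out. The number of arrays limits the precision. Where both arrays of a group were no brighter than the control level, the fold is a lower bound, in which each dim signal was replaced by that array's control level. Same-numbered arrays deviated together from their group means in every pair of groups (r = 0.178 to 0.302), although the labels do not say what a number shares, so replicate number was fitted as a block in an alternative. Other alternatives were a pseudocount of 16, no filter or a filter of 50%, quantile normalization, signals raised to the control level, no trend, and each array left out.

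The members and lists were chosen with earlier results of these data known. Members named by the rule were LBD41, HRA1, PDC2 and AT4G17260, every member called, and the 3 largest rises and falls per contrast. Of these, AT1G05575, AT1G26270, AT1G72940, AT1G74940 and AT3G23170 are given mainly by their signal range. Other members are given because they complete the set, as are CML38, AT3G27220, AT3G10020 and the dim members, whose values were seen first. Of the 4 marker lists, those of root ground tissue and tip and of wounding and touch had no row.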

Additional observations from a re-analysis of the deposited data

Results flagged for a closer look

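The iron response differed between the genotypes by the interaction term for 4 members. The response in pye-1 minus that in wild type was 3.67 ± 0.47 on the log2 scale for AT1G19530 (adjusted p = 0.0222), 2.30 ± 0.24 for LBD41 (AT3G02550, adjusted p = 0.0106), 2.00 ± 0.20 for AT1G33055 (adjusted p = 0.0106) and 1.50 ± 0.19 for AT4G27450 (adjusted p = 0.0248). By replicate number the interaction was 4.47 and 2.88 for AT1G19530, 2.45 and 2.15 for LBD41, 2.28 and 1.71 for AT1G33055, and 1.78 and 1.22 for AT4G27450. The called estimates are the means of these values, so their shared sign is not a separate test. AT1G19530 and AT1G33055 moved in opposite directions in the 2 genotypes, and their decreases in wild type were lost when single arrays were left out. None of the 4 interactions passed without wild type -Fe replicate 1, without either pye-1 -Fe replicate, or without the intensity trend (adjusted p = 0.138 to 0.257 in the last). AT4G27450 kept its call only when wild type +Fe replicate 2 was the array omitted. The call of AT1G19530 was also lost without wild type -Fe replicate 2 or pye-1 +Fe replicate 1. With 2 arrays a group, single outlying arrays could not be sought.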

How the results depend on the processing

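The number of members called moved with the variance model, the replicate block and single arrays. Without the intensity trend no member was called for the interaction (0 against 4), none fell in wild type (0 against 2), 5 rose in pye-1 (against 6) and 4 were higher in pye-1 without iron (against 6). With the replicate block, 4 fell and 1 rose in wild type, 9 rose in pye-1, 9 were higher in pye-1 than in wild type without iron and 6 had an interaction. AT4G10270, which was tested only because of its pye-1 -Fe values, is among both counts of 9 and the 6. It is also among the 5 that rose in pye-1 without the intensity trend. The share of all tested probe sets called without the trend is not given here, so those counts describe the members only. The median change in wild type, -0.20 as reported, was -0.13 with log2(signal + 16), -0.14 with no filter, -0.33 with 50% of probe sets left out, -0.17 with quantile normalization and -0.23 after raising signals to the control level. The median interaction of the 21 members, 0.79 in the main analysis, was 0.62, 0.49 and 0.63 with the pseudocount, the 50% filter and the raised signals. The 0.79 is the value of AT2G17850, which like AT4G10270 was tested only because of its pye-1 -Fe values.

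With 1 array left out, 0 to 2 members fell and 0 rose in wild type, 4 to 7 rose in pye-1, 4 to 6 were higher in pye-1 without iron, 0 were called with iron and 0 to 4 had an interaction. Medians ran from -0.31 to -0.17 in wild type, 0.47 to 0.92 in pye-1, -0.11 to 0.07 between genotypes with iron, 0.67 to 0.93 without iron and 0.61 to 0.92 for the interaction. All of these medians include AT4G10270 and AT2G17850. A group with 1 array left was assumed to vary like the others. The share of all tested probe sets called in these fits is not given here, so their counts describe the members only. Over the single members named by the rule, 1111 alternative values kept their side of the threshold, 48 lost a call, 15 gained one, 11 uncalled changes moved across 0 by more than their standard error, and none reversed a call. Signals near the control level limit what can be said of the dim members.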
